A study of Mus musculus with 16 samples.

Results

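The genes described here are 50 genes of the cell cycle and of DNA replication, chosen by name from the 21220 genes of a normalized expression table of cultured mouse organs of Corti. They comprise 12 regulators of G1, the phase before DNA synthesis, 14 genes of DNA replication and 24 genes of G2 and mitosis. All 50 were found in the table and all 50 were among the 17125 genes with enough reads to test. The organ of Corti is the strip of sensory hair cells and supporting cells in the cochlea. Organs were dissected from C57BL/6 mice at postnatal day 0 and kept in culture for 3.5 days. The 4 groups were wild type in solvent (0.1% DMSO), wild type with 2 nM FK228, Rest(+/deltaExon4) in solvent and Rest(+/deltaExon4) with 2 nM FK228. The Rest(+/deltaExon4) animals, called heterozygous below, carry 1 Rest allele without exon 4. REST is a repressor of neuronal genes that works through histone deacetylases, and FK228, or romidepsin, inhibits class I histone deacetylases. FK228 or solvent was present from day 1 to day 1.5 and from day 3 to day 3.5 in vitro. Each group held 4 libraries, each made from a pool of 6 to 8 cultures. Whether different pools stem from different litters is not given, and the p-values cover only the variation among the pools, which may be technical. The organs were cultured whole, and no cell type was sorted.

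Cells enter the cycle when D-type cyclins with Cdk4 or Cdk6, and then E-type cyclins with Cdk2, phosphorylate the retinoblastoma protein and free E2F factors to switch on the genes of DNA replication. Later genes, from cyclin A and cyclin B to the kinetochore and spindle proteins, are switched on in G2 through a promoter element called the cell cycle homology region (CHR), often near CCAAT boxes bound by the factor NF-Y. In the newborn mouse cochlea hair cells and supporting cells have left the cycle, while mesenchymal, glial, endothelial and blood-derived cells in the same tissue can still divide.

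Promoter sequences are shown for 6 genes, 4 of mitosis and 2 of replication, to let the motifs of late and early cell cycle promoters be read beside the values below. RefSeq windows of 300 bases (250 before to 50 after each start site, GRCm38.p6) were held for 39 of the 50 genes, and no window was matched for Ccnd1, Ccnd2, Ccne2, Myc, Gmnn, Mcm4, Ccna2, Cdc25c, Aurkb, Foxm1 and Tpx2. Capitals mark any of 3 motifs: the CHR (TTTGAA or TTCGAA), the E2F site (TTTCCCGC, TTTGGCGC, TTTCGCGC or TTTGGCGG) and the CCAAT box (CCAAT), each searched on both strands. Positions count from the start site, which is 1. Cdc20 on chr4:118437324-118437463 (minus strand, -120 to 20) has a CHR at -18 and CCAAT boxes at -53 and -8. Ccnb2 on chr9:70421535-70421674 (minus strand, -120 to 20) has a CHR at 5 and CCAAT boxes at -87, -54 and -21. Cdk1 on chr10:69352893-69353032 (minus strand, -120 to 20) has CHR matches at -71 and -15 and, upstream of the stretch shown, an E2F match at -131, the only one among the mitosis genes with a window. Kif11 on chr19:37376262-37376401 (plus strand, -120 to 20) has its CHR on the other strand at -19. Mcm5 on chr8:75109319-75109458 (plus strand, -190 to -51) has overlapping E2F matches at -153 and -149, which form the run TTTCGCGCCAAA. Mcm6 on chr1:128359686-128359825 (minus strand, -120 to 20) has overlapping E2F matches at -110 and -106 and a further match at -47.
Cdc20: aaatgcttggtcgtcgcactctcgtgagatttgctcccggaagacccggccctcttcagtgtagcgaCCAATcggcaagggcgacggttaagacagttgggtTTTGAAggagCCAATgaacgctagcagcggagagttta
Ccnb2: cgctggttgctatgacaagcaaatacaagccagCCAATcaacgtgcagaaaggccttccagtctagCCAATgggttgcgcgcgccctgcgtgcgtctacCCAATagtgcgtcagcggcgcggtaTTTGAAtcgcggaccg
Cdk1: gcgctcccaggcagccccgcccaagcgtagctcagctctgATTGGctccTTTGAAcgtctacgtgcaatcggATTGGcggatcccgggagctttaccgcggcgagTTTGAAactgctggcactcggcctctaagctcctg
Kif11: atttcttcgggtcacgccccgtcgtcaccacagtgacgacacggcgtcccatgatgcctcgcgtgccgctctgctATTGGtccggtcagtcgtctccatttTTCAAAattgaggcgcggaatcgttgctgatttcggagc
Mcm5: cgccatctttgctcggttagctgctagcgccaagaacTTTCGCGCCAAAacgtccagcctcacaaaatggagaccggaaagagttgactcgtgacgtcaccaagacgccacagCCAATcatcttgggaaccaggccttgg
Mcm6: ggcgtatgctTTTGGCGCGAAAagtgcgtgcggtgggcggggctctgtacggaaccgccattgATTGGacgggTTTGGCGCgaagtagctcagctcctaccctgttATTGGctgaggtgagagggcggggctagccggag

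Among the genes with a window, a CHR was found for 15 of 19 mitosis genes (78.9%), 3 of 12 replication genes (25%) and 1 of 8 G1 regulators (12.5%), against 21.7% of 27025 mouse genes with a window. An E2F site showed the other distribution. It was found for 6 of 12 replication genes (50%), 3 of 8 G1 regulators (37.5%) and 1 of 19 mitosis genes (5.26%), against 2.7% of all genes. A CCAAT box was found for 17 of 19 mitosis genes (89.5%), 9 of 12 replication genes (75%) and 4 of 8 G1 regulators (50%), against 41.1% of all genes. These are matches of letters, not shown to be bound sites. For some genes, among them E2f1, Cdc6 and Cdk6, the window lies inside the annotated gene, so motifs near an earlier start would be missed. The windows of the members were richer in G and C than those of all genes (median 58.8% against 52.7%).

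**Figure D1:**
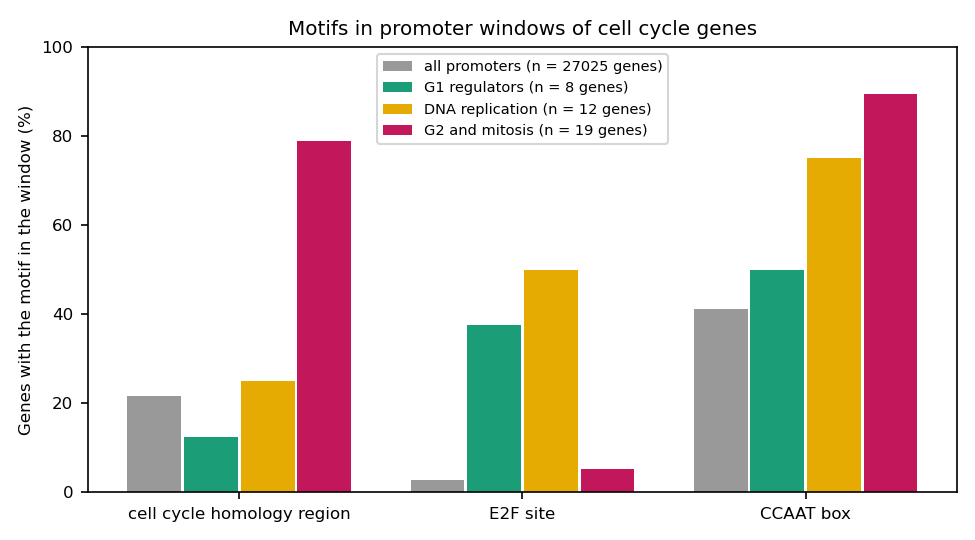
Share of genes (%) whose RefSeq promoter window of 300 bases holds each motif, for all mouse genes with a window (grey) and for the cell cycle genes by phase. The CHR bar is highest for G2 and mitosis (78.9% of 19 genes) and the E2F bar for DNA replication (50% of 12 genes).

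Library depth ran from 12361027 to 23611571 gene counts, lowest in heterozygous with FK228 (12361027 to 14153838). Rest itself was at 75.2 to 86.4 CPM (read counts scaled to a common library size) in wild-type solvent and 69.9 to 79.9 CPM after FK228. Its level was 78.1 to 94.8 CPM in heterozygous solvent and 75.8 to 87.3 CPM after FK228, and it passed the test in none of the 5 contrasts (lowest adjusted p = 0.141, edgeR's quasi-likelihood test). A count over the whole gene does not check a deletion of 1 exon. Hair cell markers were present in every library (summed level 371 to 778 CPM over 10 genes). Most of that sum came from Myo6 and Calb2, while Slc17a8 was as low as 0.0568 CPM in wild-type FK228 replicate 1. In 2 solvent libraries, wild-type replicate 1 and heterozygous replicate 4, the share of reads outside genes was lowest (12.1% and 11.7%). It was 14.5% in heterozygous solvent replicate 5 and 18% to 23% in the remaining libraries. The 2 libraries were also the lowest of their groups for most of the mitosis genes, as given below.

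With FK228 most of the 50 genes fell in both genotypes. By the quasi-likelihood test of edgeR, adjusted over all 17125 genes (threshold 0.05), 33 genes fell and 4 rose in wild type, where 25.3% of all genes tested fell and 23.7% rose. In heterozygous cultures 38 fell and 4 rose, against 24.7% and 23.8% of all genes. The median log2 fold change of the 50 genes was -0.77 in wild type and -1.0 in heterozygous cultures, while that of all genes was -0.01 and 0.00. Of the genes that fell, 32 were shared by both genotypes, and 3 genes rose in both (E2f1, E2f2 and Gmnn), although scaling to spike-in RNA turned E2f2 and Gmnn below 0 in heterozygous cultures. None moved in opposite directions. Every FK228 library lay below every solvent library for 25 of the 50 genes in wild type and for 34 in heterozygous cultures, where 22.8% and 21.5% of all genes did so. Falls of at least 2-fold numbered 20 in wild type and 26 in heterozygous cultures, against 8.55% and 8.27% of all genes.

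The phases differed in how many of their genes fell. In G2 and mitosis 19 of 24 fell in wild type and 21 of 24 in heterozygous cultures, and none rose (median log2 fold change -1.03 and -1.26). In DNA replication 8 of 14 fell in wild type and 11 of 14 in heterozygous cultures, and 1 rose (medians -0.34 and -0.64). Of the G1 regulators 6 of 12 fell and 3 rose in each genotype (medians -0.20 and -0.30). The share of G1 regulators that rose was near that of all genes (23.7% in wild type and 23.8% in heterozygous cultures). Of all genes 25.3% and 24.7% fell. With the spike-in scaling described below, 2 G1 regulators rose and 6 fell in wild type, where 11.7% of all genes rose and 26.4% fell. In heterozygous cultures no G1 regulator rose and 9 fell, where 4.71% of all genes rose and 62.6% fell. No replication or mitosis gene rose on that scale. The difference between phases was not tested. Without the 2 libraries with few reads outside genes, 37 of the 50 genes fell and 3 rose in wild type (23.8% and 23.4% of all genes), and 39 fell and 4 rose in heterozygous cultures (23.6% and 23.1% of all genes).

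**Figure D2:**
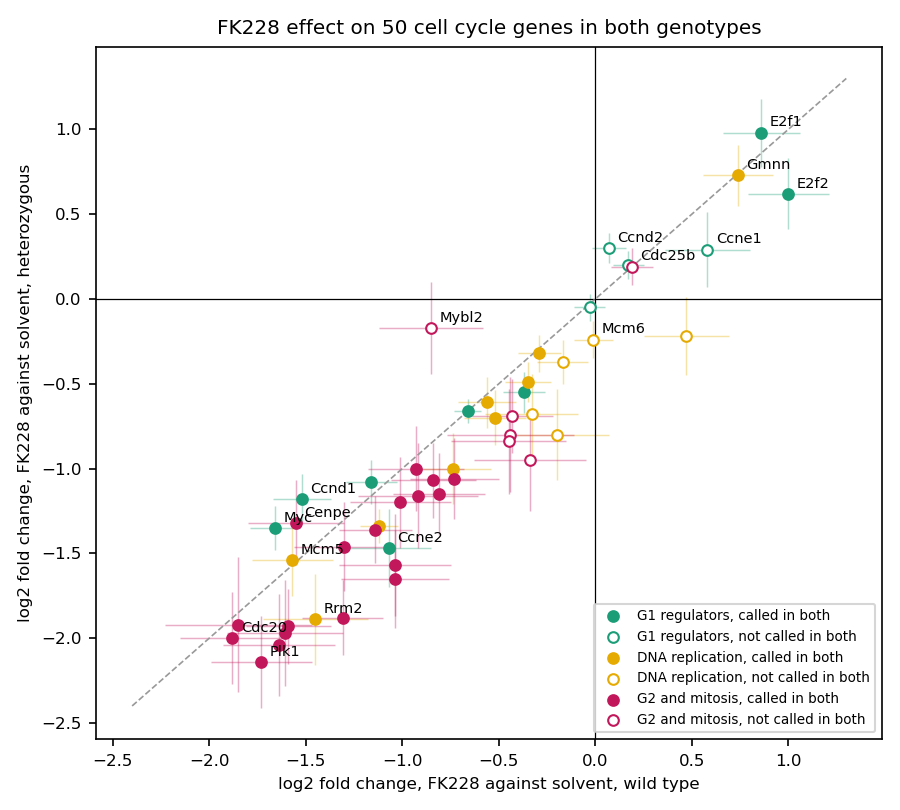
Log2 fold change of each of the 50 genes with FK228 against solvent in wild type (x axis) and in heterozygous cultures (y axis), with standard errors as bars and phases as colours; filled points passed the test in both genotypes and the dashed line marks equal change. Mitosis genes lie at the lower left down to -2.14 (Plk1), while E2f1, E2f2 and Gmnn lie at the upper right, of which E2f2 and Gmnn turn below 0 in heterozygous cultures with spike-in scaling.

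ERCC spike-in RNA made up 0.156% to 0.237% of counts in 3 groups and 0.312% to 0.393% in heterozygous cultures with FK228. Scaling the libraries to these spike-ins moved the median of all genes to -0.16 with FK228 in wild type and to -0.72 in heterozygous cultures. On that scale 32 of the 50 genes fell and 2 rose in wild type, where 26.4% of all genes fell and 11.7% rose. In heterozygous cultures 46 fell and none rose, where 62.6% of all genes fell and 4.71% rose. All directions below are relative to the bulk of the genes. Where the spike-in scale turns a direction that passed the test, this is said in the sentence. For values that did not pass the test the spike-in scale is mostly not given. In heterozygous cultures the shift to -0.72 is larger than several such values above 0, among them those of Cdk2, Ccne1 and Cdc25b. In these whole cultures fewer dividing cells and less RNA per cell cannot be told apart.

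Among the D-type cyclins, which take the growth signal to Cdk4 and Cdk6, only Ccnd1 fell in both genotypes. Ccnd1 (chr7:144929931-144939925 in GRCm38, minus strand) was at 45.3, 84.7, 71.3 and 57.3 CPM in wild-type solvent and at 19.5, 27.2, 22.6 and 21.1 CPM with FK228. The heterozygous libraries stood at 64.5, 70.1, 58.2 and 62.6 CPM in solvent and at 25.1, 28.3, 29.1 and 29.8 CPM with FK228. All FK228 libraries lay below all solvent libraries of the same genotype, a fall of 2.86-fold in wild type (log2 fold change -1.52 ± 0.15 SE, n = 4 against 4, edgeR adjusted p = 2.14e-07) and of 2.27-fold in heterozygous cultures (-1.18 ± 0.15, edgeR adjusted p = 3.58e-06). Ccnd3 was at 51.7 to 62.4 CPM in wild-type solvent and 52 to 64.1 with FK228, and at 55.6 to 64.5 and 53.5 to 62.2 CPM in heterozygous cultures. Its log2 fold changes of -0.03 ± 0.08 and -0.05 ± 0.08 did not pass the test, with overlapping groups, though with spike-in scaling the heterozygous value was -0.77 and passed it (adjusted p = 9.98e-05).

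Ccnd2 was the D-type cyclin with the most RNA per length, at 64.9 CPM per kilobase of exon in wild-type solvent against 13.7 for Ccnd1 and 6.67 for Ccnd3. Its libraries stood at 653, 526, 607 and 657 CPM in wild-type solvent and at 658, 731, 642 and 541 CPM with FK228, which overlap. In heterozygous cultures they stood at 648, 678, 722 and 692 CPM in solvent and at 955, 795, 759 and 869 CPM with FK228, so that all treated libraries were higher. Ccnd2 rose there by 1.23-fold (log2 fold change 0.30 ± 0.09, edgeR adjusted p = 0.0121), but spike-in scaling turned this to -0.40, and without heterozygous FK228 replicate 2 the adjusted p was 0.0524. In wild type its log2 fold change of 0.07 ± 0.09 did not pass the test, and the interaction, which tests the difference between the genotypes' FK228 effects, gave 0.23 ± 0.13 (edgeR adjusted p = 0.902).

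The kinases that pair with the D-type cyclins both fell. Cdk4 was at 387, 409, 374 and 343 CPM in wild-type solvent, at 253, 247, 242 and 219 CPM with FK228, at 379, 401, 389 and 371 CPM in heterozygous solvent and at 253, 229, 249 and 243 CPM with FK228. The replicates were tight and the groups far apart, with a fall of 1.58-fold in each genotype (log2 fold change -0.66 ± 0.07 in both, edgeR adjusted p = 2.72e-07 and 2.36e-07). Cdk6 fell by 2.24-fold in wild type, from 146 to 230 CPM in solvent to 79.9 to 96 CPM, and by 2.12-fold in heterozygous cultures, from 152 to 215 CPM to 83.5 to 97.3 CPM. Cdk2, the partner of the E-type cyclins, had log2 fold changes of 0.17 ± 0.08 and 0.20 ± 0.08 and did not pass the test in either genotype (edgeR adjusted p = 0.111 and 0.0537).

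The E-type cyclins, which drive entry into DNA synthesis, did not move together. Ccne2 was at 53.4, 101, 103 and 57.7 CPM in wild-type solvent and at 31.7, 34.6, 43.3 and 41.1 CPM with FK228. The heterozygous libraries stood at 104, 101, 56.5 and 67.8 CPM in solvent and at 28.9, 35.4, 31.6 and 22.7 CPM with FK228. It fell by 2.09-fold and 2.78-fold without overlap between groups (edgeR adjusted p = 0.000675 and 3.52e-05). Ccne1 went the other way in wild type, from 8.86, 15.5, 12.9 and 8.33 CPM to 16.5, 17, 17.4 and 17 CPM. That rise of 1.49-fold passed the test narrowly (log2 fold change 0.58 ± 0.22, edgeR adjusted p = 0.0346). It was lost when any of the 4 wild-type FK228 libraries or wild-type solvent replicate 1 or 4 was left out (adjusted p 0.0541 to 0.111), without the 2 libraries with few reads outside genes (0.054) and with spike-in scaling (0.40 on the log2 scale, adjusted p = 0.287). In heterozygous cultures Ccne1 stood at 19.9, 14.7, 8.69 and 12.1 CPM in solvent and at 20.3, 18.3, 14.1 and 14.9 CPM with FK228, which overlap (0.29 ± 0.22, edgeR adjusted p = 0.294).

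Myc, a transcription factor that promotes growth and cell cycle entry, had the smallest p of the 50 genes in wild type. It lies on chr15:61985391-61990374 (GRCm38, plus strand). Its level was 49.7, 48.4, 52.9 and 47.2 CPM in wild-type solvent and 14.8, 18.5, 16.9 and 12.5 CPM with FK228. Its heterozygous levels were 57.3, 50.9, 45.2 and 45.4 CPM in solvent and 21.9, 15.2, 18.2 and 22.8 CPM with FK228. The falls of 3.16-fold (log2 fold change -1.66 ± 0.13, edgeR adjusted p = 1.76e-08) and 2.55-fold (-1.35 ± 0.13, edgeR adjusted p = 1.75e-07) far exceeded the spread of replicates. Cdc25a, the phosphatase that activates Cdk2, fell by 1.29-fold in wild type and 1.47-fold in heterozygous cultures.

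E2f1 and E2f2, activators of replication genes, rose in both genotypes, although E2f2 turned below 0 in heterozygous cultures with spike-in scaling. E2f1 was at 4.7, 6.93, 8.97 and 6.15 CPM in wild-type solvent and at 9.42, 10.3, 14.7 and 13.9 CPM with FK228. Among heterozygous libraries it was at 6.08, 5.57, 6.94 and 7.26 CPM in solvent and at 14, 14.1, 9.53 and 13.2 CPM with FK228. It rose by 1.81-fold (log2 fold change 0.86 ± 0.20, edgeR adjusted p = 0.00147) and 1.97-fold (0.98 ± 0.20, edgeR adjusted p = 0.000566), without overlap between the groups, though with spike-in scaling the heterozygous value was 0.28 and did not pass the test. E2f2 was at 2.4, 4.84, 5.66 and 4.83 CPM in wild-type solvent and at 8.63, 8.4, 9.06 and 9.23 CPM with FK228, and at 6.78, 5.24, 4.71 and 4.93 CPM in heterozygous solvent and 7.18, 9.86, 8.04 and 8.18 CPM with FK228. It rose by 2-fold in wild type (edgeR adjusted p = 0.000588) and by 1.54-fold in heterozygous cultures (edgeR adjusted p = 0.0196), where spike-in scaling turned it to -0.12 and leaving out heterozygous FK228 replicate 3 or solvent replicate 4 ended the call (adjusted p = 0.0662 and 0.0524). Both genes were low, at 2.12 and 0.908 CPM per kilobase in wild-type solvent, against 116 for Cdk4.

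**Figure D3:**
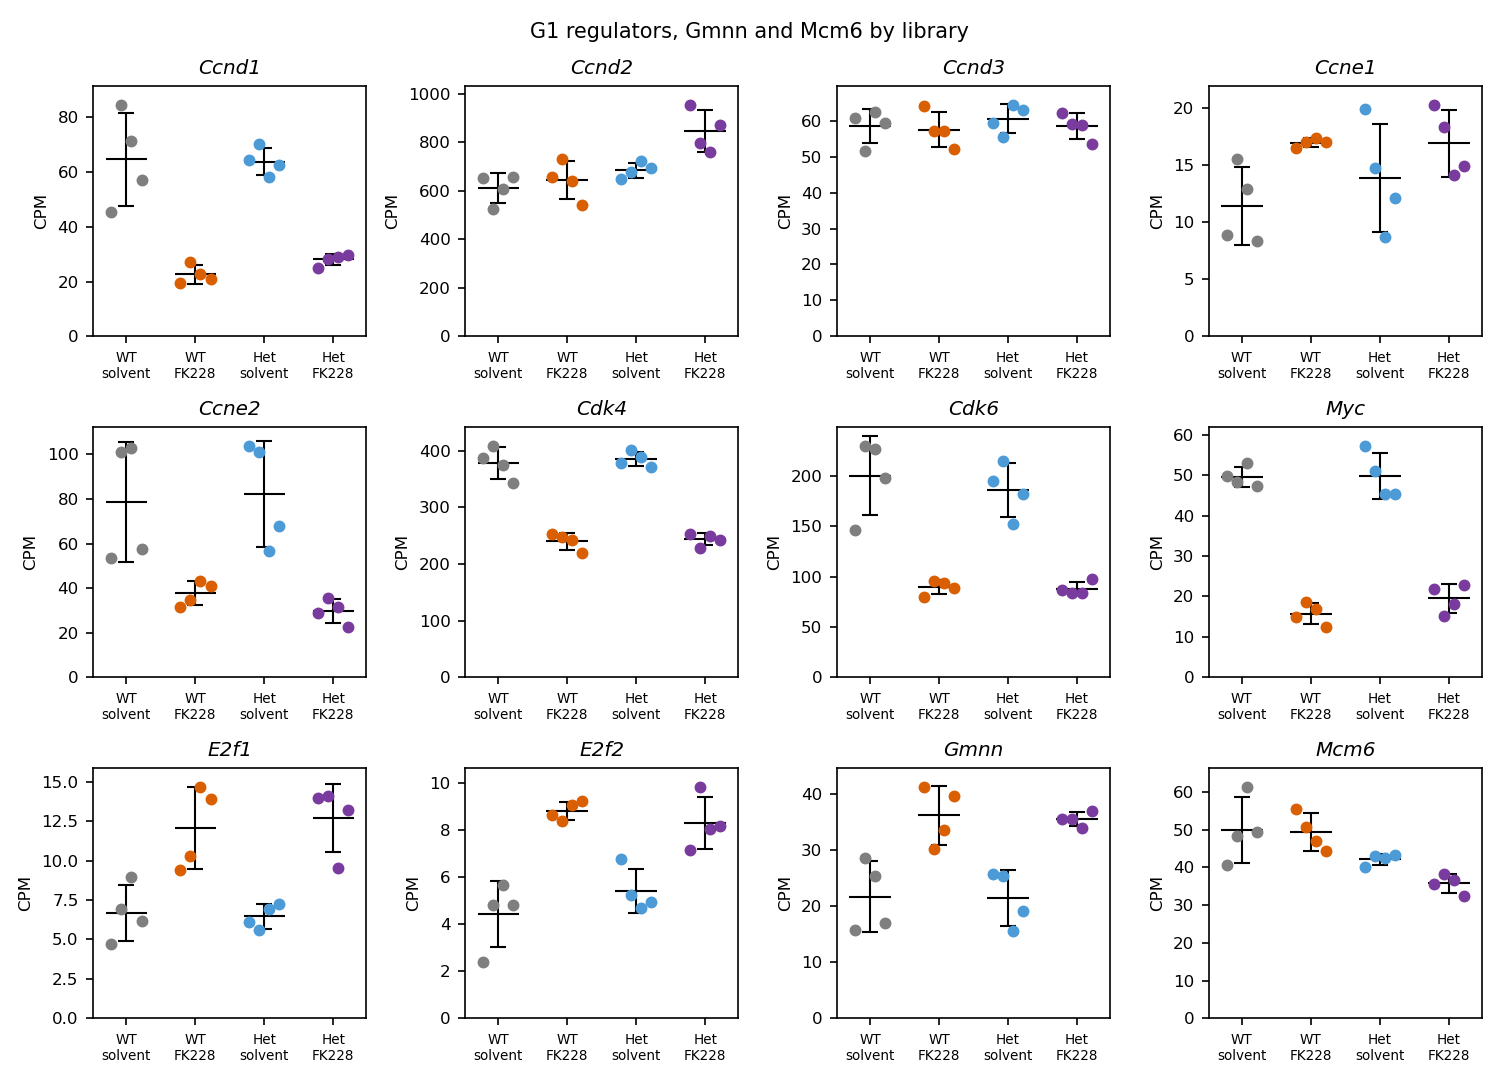
Level (CPM) of 10 G1 regulators, Gmnn and Mcm6 in each library (points) with the mean (long line) and SD (bars) of 4 libraries per group. Ccnd1, Ccne2, Cdk4, Cdk6 and Myc are lower with FK228 without overlap; E2f1, E2f2 and Gmnn are higher on this scale, of which E2f2 and Gmnn turn below 0 in heterozygous cultures with spike-in scaling.

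Of the helicase subunits Mcm2, Mcm3, Mcm4, Mcm5 and Mcm7 fell in both genotypes and Mcm6 passed neither FK228 test. The MCM2 to MCM7 proteins form a ring of 6 subunits that unwinds DNA. Mcm5 (chr8:75109569-75128439 in GRCm38, plus strand) was at 26.8, 54.8, 36.2 and 28.9 CPM in wild-type solvent and at 13.6, 11, 11.8 and 12.8 CPM with FK228. In heterozygous cultures it was at 53.8, 50, 34.3 and 33.1 CPM in solvent and at 17.1, 13.8, 15.9 and 12 CPM with FK228. It fell by 2.97-fold (log2 fold change -1.57 ± 0.21, edgeR adjusted p = 6.21e-06) and 2.91-fold (-1.54 ± 0.21, edgeR adjusted p = 7.42e-06). Mcm3 fell by 2.18-fold and 2.53-fold with little spread, from 50 to 67.5 CPM to 27.1 to 27.9 CPM in wild type and from 54.6 to 75.7 CPM to 25.1 to 27.2 CPM in heterozygous cultures (edgeR adjusted p = 9.25e-08 and 1.19e-08). Mcm2, Mcm4 and Mcm7 fell less, by 1.43-fold, 1.27-fold and 1.22-fold in wild type and by 1.62-fold, 1.41-fold and 1.25-fold in heterozygous cultures.

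Mcm6, whose promoter window holds the most E2F matches of the sequences shown, did not pass the test with FK228. Its libraries stood at 40.5, 48.3, 61.4 and 49.4 CPM in wild-type solvent and at 55.5, 50.8, 46.9 and 44.2 CPM with FK228, and its log2 fold change was -0.01 ± 0.10. In heterozygous cultures they stood at 40, 42.9, 42.4 and 43.2 CPM in solvent and at 35.7, 38.2, 36.7 and 32.3 CPM with FK228 (-0.24 ± 0.11, edgeR adjusted p = 0.0755). Those heterozygous groups did not overlap, and the value passed the test when only the 2 groups were fitted (adjusted p = 0.0294), with spike-in scaling (-0.95), and without wild-type solvent replicate 1 or 3 (0.0431 and 0.0384). The difference between Mcm6 and the other subunits was not tested.

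Of the genes that license origins, Gmnn rose except with spike-in scaling and Cdc6 fell in heterozygous cultures. Cdt1 passed neither FK228 test, though with spike-in scaling it fell in heterozygous cultures. Gmnn encodes geminin, which binds CDT1 and blocks the loading of the helicase. Gmnn was at 15.8, 28.6, 25.4 and 17 CPM in wild-type solvent and at 41.3, 30.2, 33.5 and 39.7 CPM with FK228, and at 25.8, 25.3, 15.5 and 19.2 CPM in heterozygous solvent and 35.6, 35.6, 34 and 37 CPM with FK228. All treated libraries were higher than all solvent libraries of their genotype. Gmnn rose by 1.67-fold (log2 fold change 0.74 ± 0.18, edgeR adjusted p = 0.00219) and 1.66-fold (0.73 ± 0.18, edgeR adjusted p = 0.00275), but with spike-in scaling it was at 0.55 in wild type and -0.01 in heterozygous cultures and passed the test in neither. Cdt1, the loader that geminin inhibits, had log2 fold changes of 0.47 ± 0.22 in wild type and -0.22 ± 0.23 in heterozygous cultures with overlapping groups, and Cdc6, another loader, had -0.20 ± 0.27 in wild type and fell by 1.74-fold in heterozygous cultures (edgeR adjusted p = 0.0205). Cdc45, a part of the active helicase, fell by 1.66-fold and 2-fold.

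The enzymes of nucleotide supply fell, and Rrm2 fell the most. Ribonucleotide reductase makes the building blocks of DNA, and Rrm2 encodes its small subunit, which is made mainly in S phase. Rrm2 was at 77.8, 182, 168 and 80.8 CPM in wild-type solvent and at 40.8, 41.1, 51.9 and 52.9 CPM with FK228. Heterozygous libraries held 176, 168, 88.6 and 118 CPM in solvent and 38, 45.8, 38.8 and 25.5 CPM with FK228. It fell by 2.72-fold (log2 fold change -1.45 ± 0.27, edgeR adjusted p = 0.000206) and 3.71-fold (-1.89 ± 0.27, edgeR adjusted p = 1.57e-05). Rrm1, the large subunit, fell by 1.48-fold and 1.52-fold, from 54.6 to 88.1 CPM to 44.9 to 51.1 CPM in wild type and from 56.1 to 89.3 CPM to 47.5 to 49.1 CPM in heterozygous cultures. Tyms, which makes thymidylate, fell in heterozygous cultures alone among the tests run (1.61-fold, edgeR adjusted p = 0.0251, against -0.33 ± 0.24 on the log2 scale in wild type). Pcna, the sliding clamp of DNA polymerase, was at 40.4, 55.2, 41.6 and 33 CPM in wild-type solvent and 37.7, 34.6, 35 and 43.5 CPM with FK228, which overlap. In heterozygous cultures it was at 53.6, 55.1, 45.9 and 43.7 CPM in solvent and 36.5, 38.6, 40.5 and 38.2 CPM with FK228, a fall of 1.29-fold (edgeR adjusted p = 0.0227). That call was lost without heterozygous FK228 replicate 2 or heterozygous solvent replicate 1 or 2 (adjusted p 0.0569 to 0.0701).

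The count of replication genes that fell leaned on single solvent libraries. It was 5 of 14 in wild type without solvent replicate 3, and 7 of 14 in heterozygous cultures without solvent replicate 1 or 2. Those libraries were among those with the highest levels in their groups.

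In G2 and mitosis the falls were larger, and they covered the kinases, the cyclins, the kinetochore and the factors that switch mitotic genes on. Cdc20, the activator of the anaphase-promoting complex, was at 12.6, 27.2, 26.1 and 16.9 CPM in wild-type solvent and at 5.62, 5.08, 5.56 and 6.23 CPM with FK228. For heterozygous cultures the levels were 29, 31.2, 16.2 and 16.9 CPM in solvent and 7.79, 4.2, 6.96 and 4.41 CPM with FK228. The groups did not overlap, and the fall was 3.67-fold in wild type (log2 fold change -1.88 ± 0.27, edgeR adjusted p = 1.68e-05) and 3.99-fold in heterozygous cultures (-2.0 ± 0.27, edgeR adjusted p = 9.67e-06). Its promoter stretch, with a CHR between CCAAT boxes, is the first of those printed above.

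Plk1 encodes a kinase that drives entry into and passage through mitosis. It was at 12, 25.9, 26.9 and 13.8 CPM in wild-type solvent and at 5.05, 5.5, 5.8 and 7.36 CPM with FK228, and at 28.2, 31.8, 17.2 and 19.8 CPM in heterozygous solvent and 5.75, 7.31, 4.46 and 4.49 CPM with FK228. It fell by 3.31-fold and 4.4-fold (edgeR adjusted p = 3.22e-05 and 3.92e-06). The latter was the largest fold among the 50 genes. Aurka and Aurkb, the Aurora kinases of spindle and chromosome, fell by 2.06-fold and 2.21-fold in wild type and by 3.14-fold and 2.57-fold in heterozygous cultures.

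The mitotic cyclins fell together with their kinase Cdk1. Ccna2 was at 11, 18.7, 22.4 and 14.7 CPM in wild-type solvent and at 5.56, 6.71, 4.77 and 5.15 CPM with FK228. The heterozygous levels were 17.4, 18.9, 12.3 and 18.6 CPM in solvent and 5.82, 4.69, 3.92 and 3.23 CPM with FK228. It fell by 3-fold (log2 fold change -1.59 ± 0.22, edgeR adjusted p = 9.21e-06) and 3.8-fold (-1.93 ± 0.22, edgeR adjusted p = 1.47e-06), the smallest adjusted p of the mitosis genes in each genotype. Ccnb1 fell by 3.12-fold and 4.11-fold and Ccnb2 by 3.05-fold and 3.91-fold. Cdk1 fell less, by 1.79-fold in wild type (41.4 to 99.2 CPM against 37.3 to 40.9) and 2.1-fold in heterozygous cultures (54.5 to 98.1 CPM against 33.7 to 39.7).

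Mki67 and Top2a, common markers of cycling cells, fell as well. Mki67 (chr7:135689784-135716361 in GRCm38, minus strand) encodes the coat protein of mitotic chromosomes known as Ki-67. It was at 15.7, 28.8, 26.6 and 19.1 CPM in wild-type solvent and at 8.57, 8.1, 12.4 and 7.25 CPM with FK228, and at 26.1, 31.5, 18.3 and 18.9 CPM in heterozygous solvent and 6.05, 5.86, 7.43 and 6.37 CPM with FK228. It fell by 2.48-fold (log2 fold change -1.31 ± 0.21, edgeR adjusted p = 6.19e-05) and 3.68-fold (-1.88 ± 0.22, edgeR adjusted p = 1.84e-06). Top2a, a topoisomerase that untangles chromosomes, was at 49.9, 112, 94.7 and 66.9 CPM in wild-type solvent and at 35.4, 37.8, 49.3 and 47.1 CPM with FK228, and at 109, 116, 59.7 and 62.7 CPM in heterozygous solvent and 53.7, 47.4, 42 and 30 CPM with FK228. The highest treated library lay just below the lowest solvent library in each genotype, and the fall was 1.9-fold and 2.01-fold (edgeR adjusted p = 0.00452 and 0.00268).

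Cenpe, a kinesin of the kinetochore, was at 15, 27.9, 23.4 and 21.8 CPM in wild-type solvent and at 7.15, 5.86, 7.25 and 9.85 CPM with FK228, and at 27.1, 30.2, 14.2 and 15.7 CPM in heterozygous solvent and 10.7, 7.58, 9.66 and 6.85 CPM with FK228. It fell by 2.92-fold and 2.5-fold. Cenpa, the histone variant of centromeres, fell by 2.47-fold and 2.76-fold, Birc5 (survivin) by 2.02-fold and 2.3-fold, Bub1b of the spindle checkpoint by 1.66-fold and 2.09-fold, and Kif11, a spindle motor, by 2.06-fold and 2.96-fold. Tpx2 and Ect2, which act in spindle assembly and cytokinesis, fell by 1.76-fold and 1.89-fold in wild type and by 2.22-fold and 2.24-fold in heterozygous cultures. Foxm1, an activator of late cell cycle genes, fell by 3.61-fold and 3.79-fold at low levels (2.26 to 7.65 CPM in wild-type solvent).

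A few mitosis genes were called in 1 genotype or in neither. Bub1, Cenpf and Prc1 had log2 fold changes of -0.34 ± 0.29, -0.45 ± 0.30 and -0.43 ± 0.21 in wild type and fell in heterozygous cultures (1.93-fold, 1.79-fold and 1.61-fold), with overlapping groups in both. Mybl2, which works with the MuvB complex at CHR promoters, fell in wild type by 1.8-fold (edgeR adjusted p = 0.0136) and had -0.17 ± 0.27 in heterozygous cultures. For all of them the interaction did not pass the test. Cdc25b and Cdc25c, phosphatases that activate Cdk1, passed no FK228 test without spike-in scaling. They were at 0.19 ± 0.11 and -0.44 ± 0.33 in wild type and 0.19 ± 0.11 and -0.80 ± 0.34 in heterozygous cultures. With spike-in scaling both passed the test as lower in heterozygous cultures.

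**Figure D4:**
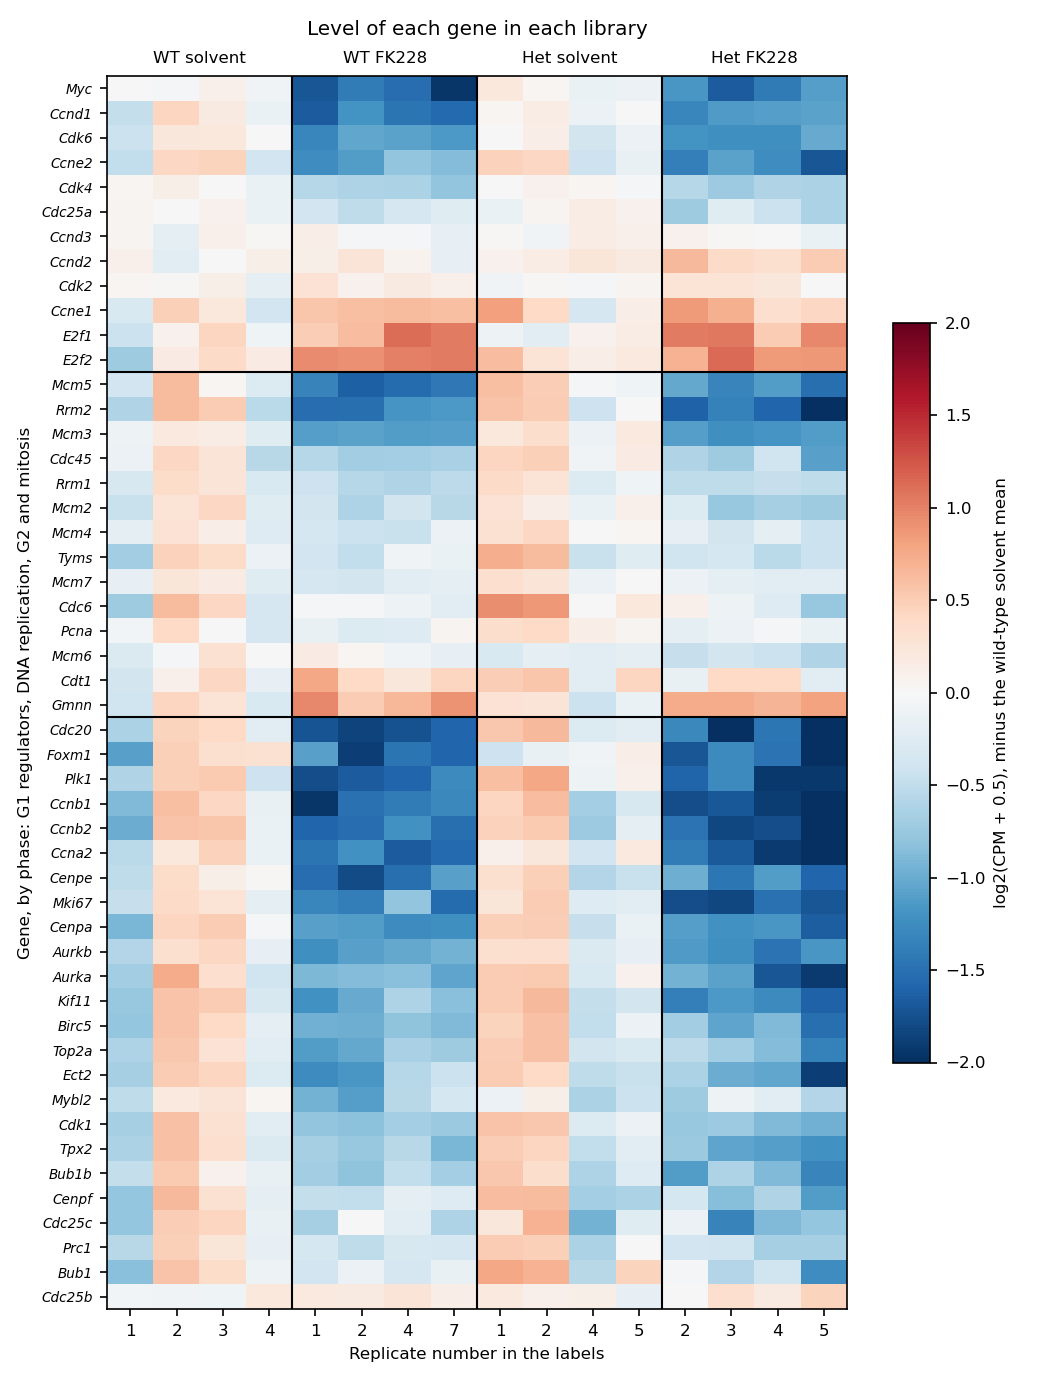
Level of each of the 50 genes in each of the 16 libraries, as log2(CPM + 0.5) minus the mean of the wild-type solvent libraries (colours saturate at 2 and -2); rows are grouped by phase and columns by group. Within solvent, wild-type replicates 2 and 3 and heterozygous replicates 1 and 2 have higher values in replication and mitosis than the others of their groups.

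The solvent libraries varied more in these genes than the FK228 libraries, and their order was shared among genes. Summed over the 24 mitosis genes, the level was 425, 968, 862 and 602 CPM in wild-type solvent (replicates 1 to 4) and 939, 976, 496 and 597 CPM in heterozygous solvent (replicates 1, 2, 4 and 5). With FK228 it was 346, 357, 407 and 386 CPM in wild type and 382, 345, 327 and 270 CPM in heterozygous cultures. The sum in the highest wild-type solvent library was thus 2.28 times that in the lowest, against 1.17 times with FK228. For replication the sums were 541, 913, 848 and 574 CPM in wild-type solvent and 937, 915, 602 and 686 CPM in heterozygous solvent, and 466 to 531 and 441 to 493 CPM with FK228. Wild-type solvent replicate 1 had the lowest level of its group for 23 of the 24 mitosis genes, and heterozygous solvent replicate 4 for 22 of 24. These are the 2 libraries with the fewest reads outside genes.

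**Figure D5:**
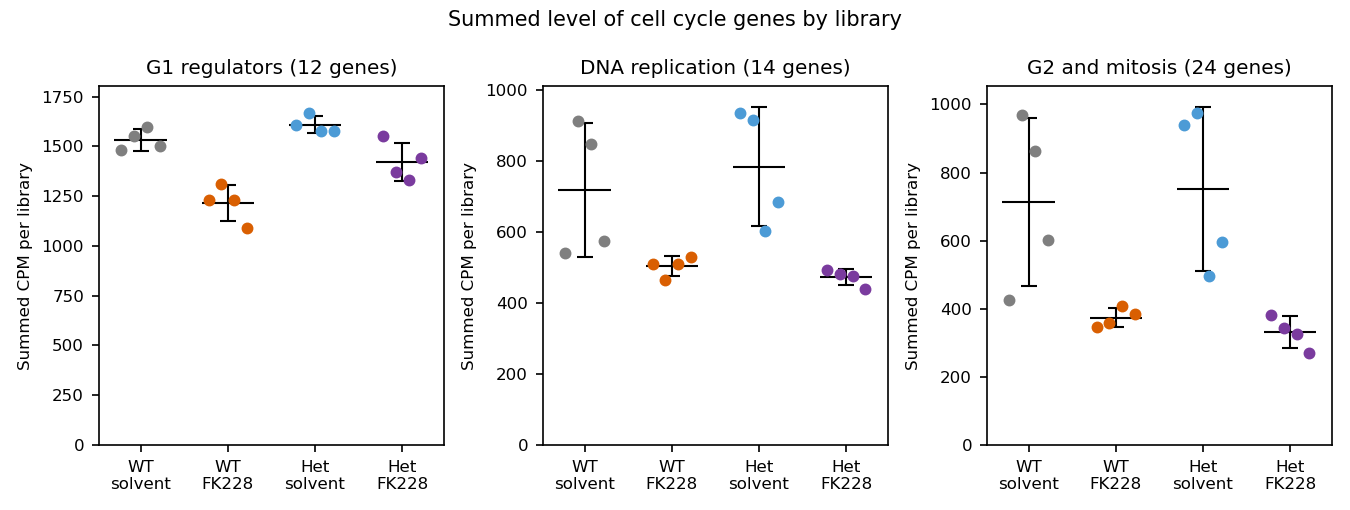
Summed CPM of the genes of each phase in each library (points) with the mean (long line) and SD (bars) of 4 libraries per group. In mitosis the wild-type solvent libraries spread from 425 to 968 CPM and all FK228 libraries sit between 270 and 407 CPM.

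The median SD of the 24 mitosis genes on the log2 scale was 0.56 in wild-type solvent and 0.16 with FK228, and 0.50 and 0.31 in heterozygous cultures, where that of all genes was 0.18 to 0.21 in every group. The SD was larger in solvent than with FK228 for 46 of the 50 genes in wild type and for 37 in heterozygous cultures. The same count was not made over all genes, and the order of the libraries was shared among the 50 genes. Cell type markers also differed among the solvent libraries. The summed level of 10 hair cell markers was 765 CPM in wild-type solvent replicate 1 against 564 to 630 in the others of its group, and 575 CPM in heterozygous solvent replicate 4 against 371 to 478. Myo6 and Calb2 made up most of each of these sums. The part of the hair cell markers in the spread of the cell cycle genes was not tested. Without these 2 libraries 22 of the 24 mitosis genes fell in wild type and 22 in heterozygous cultures.

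Markers of several cell types of the cochlea moved with FK228 beside the cell cycle genes. Of all genes tested 25.3% fell and 23.7% rose in wild type, and 24.7% fell and 23.8% rose in heterozygous cultures. With spike-in scaling 62.6% fell and 4.71% rose in heterozygous cultures. All 10 macrophage markers fell in both genotypes, with a summed level of 424 to 519 CPM in wild-type solvent and 51 to 65.9 CPM after FK228, and 283 to 439 and 33.5 to 43.9 CPM in heterozygous cultures. Of 10 mesenchyme markers 9 fell and 1 rose in wild type (3650 to 4730 CPM summed in solvent, 2070 to 2620 after FK228), and 8 fell and 1 rose in heterozygous cultures (3780 to 5110 and 2130 to 2420 CPM), where with spike-in scaling none rose. Of 9 Schwann cell markers 6 and 7 fell (390 to 464 and 217 to 254 CPM in wild type, 399 to 447 and 201 to 256 CPM in heterozygous cultures). Of 10 supporting cell markers 6 and 7 fell (1410 to 1790 and 1140 to 1330 CPM in wild type, 1450 to 1840 and 1120 to 1270 CPM in heterozygous cultures). Of 10 endothelial markers 6 and 5 fell (251 to 377 and 151 to 243 CPM in wild type, 287 to 348 and 200 to 260 CPM in heterozygous cultures). None of these last 3 lists held a gene that rose.

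Of 10 hair cell markers 3 fell and 1 rose in wild type (564 to 765 and 655 to 778 CPM summed), and 1 fell and 1 rose in heterozygous cultures (371 to 575 and 484 to 567 CPM), where with spike-in scaling 7 fell and 0 rose. The shares of hair cell markers that fell in wild type and with spike-in scaling were near those of all genes. Of 10 neuron markers 4 rose and 2 fell in wild type (279 to 517 and 361 to 691 CPM), and 6 rose and 0 fell in heterozygous cultures (128 to 218 and 235 to 364 CPM), where with spike-in scaling 3 rose and 1 fell. No marker was at 0 throughout a group. The part of these cell types in the fall of the cell cycle genes was not tested.

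Beyond the 50 genes, 113 further genes of the cycle were read in 10 lists. In wild type 21 rose and 37 fell with FK228, and in heterozygous cultures 23 rose and 45 fell, of which 18 and 35 were shared. The 23 include Cdkn2a, whose call is no support, as given below. With spike-in scaling 9 rose and 37 fell in wild type, and 2 rose and 91 fell in heterozygous cultures. The counts of each list stand beside the same shares of all genes as above: 23.7% rose and 25.3% fell in wild type, 23.8% and 24.7% in heterozygous cultures, and with spike-in scaling 62.6% fell in heterozygous cultures. The lists were not uniform: no gene of the 2 mitotic lists rose, while genes of replication and CDK inhibitors rose in part, fewer of them with spike-in scaling. For CDK inhibitors and for origin recognition and helicase loading, the share that rose in wild type was near that of all genes.

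In the kinetochore and spindle checkpoint 6 of 13 fell in wild type and 10 in heterozygous cultures, and none rose. Nuf2, of the complex that holds microtubules, fell by 3.15-fold and 4.43-fold, from 13.2, 27.8, 19.8 and 15.6 CPM to 6.19, 5.02, 7 and 6 CPM in wild type and from 27.5, 28.7, 12.5 and 12.9 CPM to 5.44, 4.76, 4.26 and 3.93 CPM in heterozygous cultures. Mad2l1, the checkpoint protein that restrains CDC20, fell by 2.17-fold and 2.34-fold. Of 13 mitotic kinesins and cytokinesis genes 7 and 10 fell and none rose, among them Kif20a (2.49-fold and 2.76-fold) and Kif22 (2.31-fold and 2.46-fold). Of the anaphase-promoting complex and its inhibitors 7 of 10 fell in wild type and 6 in heterozygous cultures. Fbxo5, which encodes the inhibitor EMI1, fell by 3.37-fold and 3.81-fold, and the subunit Cdc23 by 1.28-fold and 1.43-fold. Anapc10 rose by 1.34-fold and 1.19-fold, but spike-in scaling took it to 0.27 in wild type, not past the test, and turned it to -0.46 in heterozygous cultures. There its call was also lost without FK228 replicate 2 or 4 or solvent replicate 2 or 5.

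Cohesin and condensin, the rings that hold and fold chromosomes, showed 7 falls and 2 rises among 13 genes in wild type and 8 falls and 1 rise in heterozygous cultures. Smc1a fell by 1.68-fold and 1.66-fold and Stag2 by 1.63-fold and 1.65-fold. Their partner Smc3 rose by 1.3-fold and 1.25-fold, but spike-in scaling took it to 0.22 in wild type, not past the test, and turned it to -0.40 in heterozygous cultures. Ncapd3 rose in wild type by 1.37-fold (edgeR adjusted p = 0.0216), a call lost without wild-type solvent replicate 1 or 4 or FK228 replicate 7 and with spike-in scaling, which gave -0.64 in heterozygous cultures.

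Among 21 replicative polymerase and fork genes more rose than fell: 8 rose and 2 fell in wild type, and 7 rose and 4 fell in heterozygous cultures. With spike-in scaling 1 rose and 15 fell in heterozygous cultures, where 4.71% of all genes rose and 62.6% fell. The share that rose there was near that of all genes. Rpa1, the large subunit of the protein that coats single-stranded DNA, was at 85.3, 102, 84.4 and 72.1 CPM in wild-type solvent and at 218, 175, 187 and 193 CPM with FK228, and at 92.3, 94, 82.1 and 88.8 CPM in heterozygous solvent and 201, 197, 178 and 189 CPM with FK228. It rose by 2.25-fold and 2.14-fold (edgeR adjusted p = 1.85e-08 and 3.39e-08) and stayed above 0 with spike-in scaling (1.00 and 0.38 on the log2 scale). Tk1, a thymidine kinase of S phase, fell by 1.62-fold and 1.93-fold, and Rfc3 of the clamp loader fell by 1.54-fold and 1.37-fold.

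Of 13 genes of origin recognition and helicase loading 4 rose and 3 fell in each genotype, and with spike-in scaling none rose and 9 fell in heterozygous cultures, shares near those of all genes. Mcm10 fell by 3.07-fold and 2.79-fold and Dbf4, the activator of the kinase CDC7, by 1.96-fold and 1.84-fold. Cdc7 itself, named here after its values were seen, rose by 1.73-fold and 1.53-fold, although with spike-in scaling it was at 0.61 and -0.15 on the log2 scale and passed the test in neither. Orc4 and Gins3 rose by 1.41-fold and 1.74-fold in wild type and by 1.42-fold and 1.61-fold in heterozygous cultures, where spike-in scaling turned them to -0.21 and -0.02.

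The CDK inhibitors, which restrain the kinases above, were mixed: 2 of 8 rose and 1 fell in wild type and 5 rose and 1 fell in heterozygous cultures, against 1 and 2 in each with spike-in scaling. The 5 include Cdkn2a, whose call is no support, as given below. The wild-type share of CDK inhibitors that rose was near that of all genes. Cdkn2c (p18) rose by 2.13-fold and 2.33-fold at low levels (2.03 to 3.51 CPM in wild-type solvent and 4.9 to 7.08 with FK228), and spike-in scaling left it above 0 in both, at 0.93 and 0.48, the latter not past the test. Cdkn2d (p19) rose by 1.37-fold and 1.48-fold, with 0.31 in wild type (not past the test) and -0.15 in heterozygous cultures under spike-in scaling. Cdkn1a (p21), the best known inhibitor induced by deacetylase inhibitors, was at 212, 190, 190 and 159 CPM in wild-type solvent and at 208, 205, 222 and 191 CPM with FK228 (log2 fold change 0.13 ± 0.10, edgeR adjusted p = 0.272). In heterozygous cultures it was at 170, 217, 159 and 182 CPM in solvent and 263, 233, 234 and 216 CPM with FK228, a rise of 1.3-fold (edgeR adjusted p = 0.00395) with overlapping groups, which spike-in scaling turned to -0.34. Cdkn1b (p27) fell by 1.35-fold and 1.48-fold, a call lost in wild type without solvent replicate 1, 2 or 4 or FK228 replicate 1, 2 or 4. Cdkn1c (p57) passed neither test (-0.37 ± 0.18 and -0.07 ± 0.18), but with spike-in scaling it passed both (-0.51 and -0.79), and without wild-type solvent replicate 4 the one in wild type (adjusted p = 0.0473).

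Cdkn2a, named after its values were seen, was at 0.14, 0.262, 0 and 0.0685 CPM in heterozygous solvent and 1.89, 1.31, 1.35 and 1.34 CPM with FK228. In wild type it was at 0 to 0.673 and 0.17 to 0.665 CPM. It had enough reads to be tested only through the heterozygous FK228 libraries, the group where it was highest. Its call as a rise there is therefore no support, and its adjusted p is left out. The interaction for Cdkn2a did not pass the test (edgeR adjusted p = 0.552). These levels rest on few reads.

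Of the pocket proteins and their MuvB partners, which repress cell cycle genes in resting cells, 3 of 12 rose and 1 fell in wild type and 4 rose and 1 fell in heterozygous cultures, where spike-in scaling gave 0 and 9. The share that rose in wild type and the share that fell with spike-in scaling were near those of all genes. Rb1 rose by 1.82-fold and 1.75-fold, with 0.13 in heterozygous cultures under spike-in scaling, which did not pass the test. Tfdp2, a partner of the E2F factors, rose by 1.72-fold and 1.45-fold, with -0.20 in heterozygous cultures under spike-in scaling. Lin9, of the MuvB core, fell by 1.94-fold and 2.14-fold. Of the other E2F factors 2 of 4 fell in wild type and 1 in heterozygous cultures. E2f3 fell by 1.48-fold and 1.6-fold, the call in wild type being lost without solvent replicate 3 or 4 or FK228 replicate 1. E2f7, a repressor, fell in wild type (2.11-fold, edgeR adjusted p = 0.0481), a call lost without wild-type solvent replicate 2 or 3, wild-type FK228 replicate 1, 2 or 7, heterozygous solvent replicate 2 or heterozygous FK228 replicate 3 or 4 (adjusted p 0.0507 to 0.197). Among 6 checkpoint kinase genes 1 rose and 1 fell in each genotype. Chek2 rose by 1.63-fold and 1.79-fold, at 0.12 in heterozygous cultures under spike-in scaling, and Wee1 fell by 1.47-fold and 2.18-fold, its wild-type call being lost without solvent replicate 3 or 4 or FK228 replicate 1 or 2.

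Between genotypes the 50 genes differed little. The genotype comparisons use the same libraries as the FK228 comparisons. In solvent none of the 50 passed edgeR's test (lowest adjusted p = 0.372, 1 gene at an unadjusted p under 0.05, and 0 passing with DESeq2), where 1.2% of all genes were higher and 0.823% lower in heterozygous cultures. With FK228, where 1.21% of all genes were higher and 0.928% lower, Ccnd2 was higher in heterozygous cultures (log2 fold change 0.39 ± 0.09, edgeR adjusted p = 0.0316) and Mcm6 lower (-0.47 ± 0.11, edgeR adjusted p = 0.0262). For each of them the 4 heterozygous FK228 libraries lay outside the range of the 4 wild-type FK228 libraries, 759 to 955 against 541 to 731 CPM for Ccnd2 and 32.3 to 38.2 against 44.2 to 55.5 CPM for Mcm6. Spike-in scaling turned Ccnd2 to -0.34. The Ccnd2 call was lost without heterozygous FK228 replicate 2 or 5 or wild-type FK228 replicate 1, 4 or 7 (adjusted p 0.0669 to 0.119), and the Mcm6 call without heterozygous FK228 replicate 2, 4 or 5 or wild-type FK228 replicate 1 or 2 (adjusted p 0.06 to 0.092). With spike-in scaling, which moved the median of all genes to -0.74 in this comparison, 44 of the 50 genes were lower in heterozygous cultures, as were 74.5% of all genes.

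The FK228 effect itself was not shown to differ between genotypes for any of the 50 genes. The interaction passed edgeR's test for none of them (lowest adjusted p = 0.845, 1 gene at an unadjusted p under 0.05, and 0 passing with DESeq2), and 0.0234% of all genes passed it. The interaction value was below 0 for 41 of the 50 genes and 22 of the 24 mitosis genes, with a median of -0.22. A value below 0 means a lower log2 fold change with FK228 in heterozygous cultures, which for genes that fell is a larger fall. The value was below 0 for 49.4% of all genes. With spike-in scaling, which moved the median of all genes to -0.56 in the interaction, 8 of the 50 passed, where 23.8% of all genes did. Among the 113 further genes 1 was higher and 0 lower in heterozygous solvent than in wild-type solvent, a share near the 1.2% of all genes that were higher. It was Cenpm, a kinetochore gene named after its values were seen, at 38.9, 26.1, 18.9 and 22.9 CPM against 9.13, 15.5, 15 and 11.8 CPM in wild type (log2 fold change 1.06 ± 0.21, edgeR adjusted p = 0.0097).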

How the data were processed

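RNA of 16 pools was converted with an oligo dT primer, tagmented and sequenced, per the labels' protocols. For every library the authors deposited its gene counts (the submitters' processing notes name STAR 2.5.2a and the build GRCm38.p4) and a normalized signal table made with DESeq2, which equals the counts divided by a factor per library and gave the gene names here. Unstranded counts were used because the strand columns held equal shares (49.8% to 49.9%), so antisense and overlapping genes are not told apart. The tests on counts used edgeR 4.0.16 (R 4.3.3): filterByExpr (minimum count 10, minimum total 15), TMM factors, 1 quasi-likelihood model of the 4 groups over 16 libraries, and Benjamini-Hochberg adjustment over 17125 genes. CPM values use the TMM-scaled library sizes, and errors of log2 fold changes are SEs. Levels per kilobase divide mean CPM by exon length in GENCODE M21, which held 99.3% of the identifiers and gave the gene positions. The fit was tested on simulated data.

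The members, the lists of other cell cycle genes and markers, the motifs and the rules were chosen with earlier results of these data known. Library values are given for the D- and E-type cyclins, Cdk4, Cdk6, Myc, Mki67, Top2a, Pcna, the members with the smallest p in each phase (up to 4 that fell and 3 that rose in both genotypes) and members called between genotypes. Pathway genes named were Cdkn1a, Cdkn1b, Cdkn1c and up to 2 per list and direction with the smallest p in wild type, of which 1 is not reported here. Alternatives were DESeq2 1.42.0, RLE factors, spike-in scaling, a fit without filter and one with a stricter filter (at least 1 CPM in 4 libraries), a fit of the compared groups alone, a block for the replicate number, the sex mix as a term, leaving out 2 libraries, and each library in turn.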

Additional observations from a re-analysis of the deposited data

Results flagged for a closer look

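Of 92 groups of 4 libraries examined (23 members in 4 groups), 1 held a library far from the others. Rrm1 stood at 49.1 CPM in heterozygous FK228 replicate 4, while the other libraries of that group stood at 47.5 to 47.7 CPM. The gap was 0.877 of the range of the group, above Dixon's 95% critical value for 4 samples, which chance exceeds in about 1 of 20 groups.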

How the results depend on the processing

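The counts of members changed by FK228 in wild type (37) and in heterozygous cultures (42) moved by less than 1.5 times under every alternative run, and leaving out single libraries gave 32 to 38 and 36 to 44. The replication genes that fell numbered 5 to 8 in wild type and 7 to 12 in heterozygous cultures when single libraries were left out. The 2 members called between genotypes with FK228 became 0 to 2 with single libraries left out and 44 with spike-in scaling, and the interaction became 8 with spike-in scaling. Spike-in scaling reversed these results on the log2 scale, all with heterozygous FK228 libraries: Ccnd2 -0.40, E2f2 -0.12, Gmnn -0.01, Cdkn1a -0.34, Cdkn2d -0.15, Tfdp2 -0.20, Orc4 -0.21, Gins3 -0.02, Anapc10 -0.46, Smc3 -0.40 and Ncapd3 -0.64 for FK228, and Ccnd2 -0.34 between genotypes. The cause was not tested, and spike-in RNA had its highest share in that group. Of 110 results for named genes, 50 of the values with a single library left out lost their call, 3 gained one and 0 reversed. The replicate numbers did not pair the libraries (correlations of deviations -0.231 to 0.169). With the number as a block, 1 member (Mcm6) was called between genotypes with FK228, and 33 and 41 members were called with FK228. The block also ended the FK228 calls of Pcna (adjusted p = 0.0544) and E2f2 (0.124) in heterozygous cultures and of E2f7 (0.238) and Ncapd3 (0.13) in wild type, and it brought Mcm6 past the test in heterozygous cultures (0.0228). Depth limits genes at a few CPM, such as Foxm1, Mybl2 and Cdkn2a.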
